A study of Bos taurus with 6 samples.

Results

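The genes described here are the BMP, GDF, TGF-beta and SMAD genes of cattle, with their receptors, antagonists, latent binding proteins and ID targets. They were matched by name, from symbols that begin with BMP, BMPR, GDF, SMAD, LTBP or CHRD. Added to these were TGFB1 to TGFB3, TGFBR1, TGFBR2, ID1 to ID3, GREM1, NOG, ACVRL1 and ENG. The names were chosen with earlier results of these data known. The rule took 51 of the 47249 genes in the deposited table, and 145 of the 108527 entries in the table of transcripts. In 3 cases, listed as matched by name only, the gene lies outside the classes named above. BMP1 is a metalloproteinase that cleaves procollagen, BMP2K is a kinase, and GDF5OS is named for the strand opposite GDF5. The libraries are labelled as testis of untreated, healthy cattle of 2 ages, immature calves of 3 months (n = 3) and mature bulls of 3 years (n = 3), of the Wandong breed according to the Methods. Each library was made from the total RNA of 1 animal after removal of ribosomal RNA. Values are FPKM, fragment counts scaled to transcript length and to the mapped fragments of a library. No counts were given with them, so the depth behind a value is unknown from these tables.

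Most BMPs and some GDFs are secreted dimers that join a type I receptor, such as BMPR1A, with a type II receptor, such as BMPR2, after which the receptor phosphorylates SMAD1, SMAD5 and SMAD9. TGF-beta is secreted in a latent form held in the matrix by LTBP proteins and signals through TGFBR2 and TGFBR1 to SMAD2 and SMAD3. Both routes share SMAD4, are damped by SMAD6 and SMAD7, and in the testis serve germ cells, Sertoli cells and vessels alike, with the ID genes among the best known targets of the BMP route.

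The library labelled calf 3 went against its label. Its 6 oligodendrocyte markers summed to an FPKM of 13020, against at most 29.4 in the other 5 libraries, its astrocyte markers to 1787 and its neuron markers to 714. Its 8 Leydig marker rows summed to 0.484, against 1165 to 2728 elsewhere, and of 10 Sertoli markers WT1, GATA4 and FSHR were at 0. The Sertoli sum of calf 3 was 473, of which CLDN11, also a myelin gene, gave 429. For this reason many results are given both with all 6 libraries and without calf 3, but not all. The median fold changes and the counts of transcript entries by kind are given with all libraries only. So are the fold changes of some genes, such as ENG, ID1, BMP2K and TGFB1. Some genes are given by their FPKM in each library, with no fold change. The spermatid markers summed to 13570 to 15320 in bulls and to at most 4.32 in calves, and the Sertoli markers to 1840 in calf 1, 1556 in calf 2 and 277 to 304 in bulls, with 7 of the 10 lower in all bulls than in calves 1 and 2 and 3 higher (CLDN11, DMRT1 and INHBB). AMH and INHA made up most of that sum in calves 1 and 2, with 736 and 955 in calf 1. The 5 macrophage markers summed to 85.0, 59.8 and 41.3 in the calves and 33.3 to 35.9 in the bulls, and the 5 peritubular myoid markers to 35.1, 47.2 and 14.7 against 60.3 to 69.9. Of the macrophage markers, 4 were lower in all bulls than in calves 1 and 2, and CD14 was higher. Of the myoid markers, 3 were higher, DES was lower and CNN1 overlapped. In whole testis, fewer cells of a type and less RNA per cell cannot be told apart, and the part of these shifts in the results below was not tested.

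More of the 51 genes fell than rose from calf to bull. A gene was tested when its FPKM reached 1 in at least 3 libraries, and was called when, in limma on the log2(FPKM + 1) scale, the adjusted p was under 0.05 and the fold change was 2 or more either way. Of the 37 genes tested, 12 were called lower in bulls, where 9.61% of all 18115 genes tested were, and 5 were called higher, where 35.7% of all genes were. Without calf 3 the calls were 15 lower and 5 higher, against 13.6% and 37.9% of all genes. The median log2 fold change was -0.67 over the 37 genes and 0.43 over all genes tested, and 70.3% of the former against 39.1% of the latter lay below 0. The median of all genes moved to -0.26 under quantile normalization, 0.28 under median ratio scaling and 0.61 under scaling to a common total, while the median of the 37 genes lay 1.06 to 1.11 below it under each of these and 1.10 below it as deposited. With no filter the gap was 0.63 over all 51 genes, and with a filter at an FPKM of 0.1 it was 0.80. Of the 37 genes, 2 passed the filter through the bulls alone (BMP3 and BMP8A), 3 through the calves alone (BMP2, GDF10 and SMAD6) and 32 through both groups. The 5 that passed through 1 group had to differ, so their calls are no support for a direction.

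**Figure D1:**
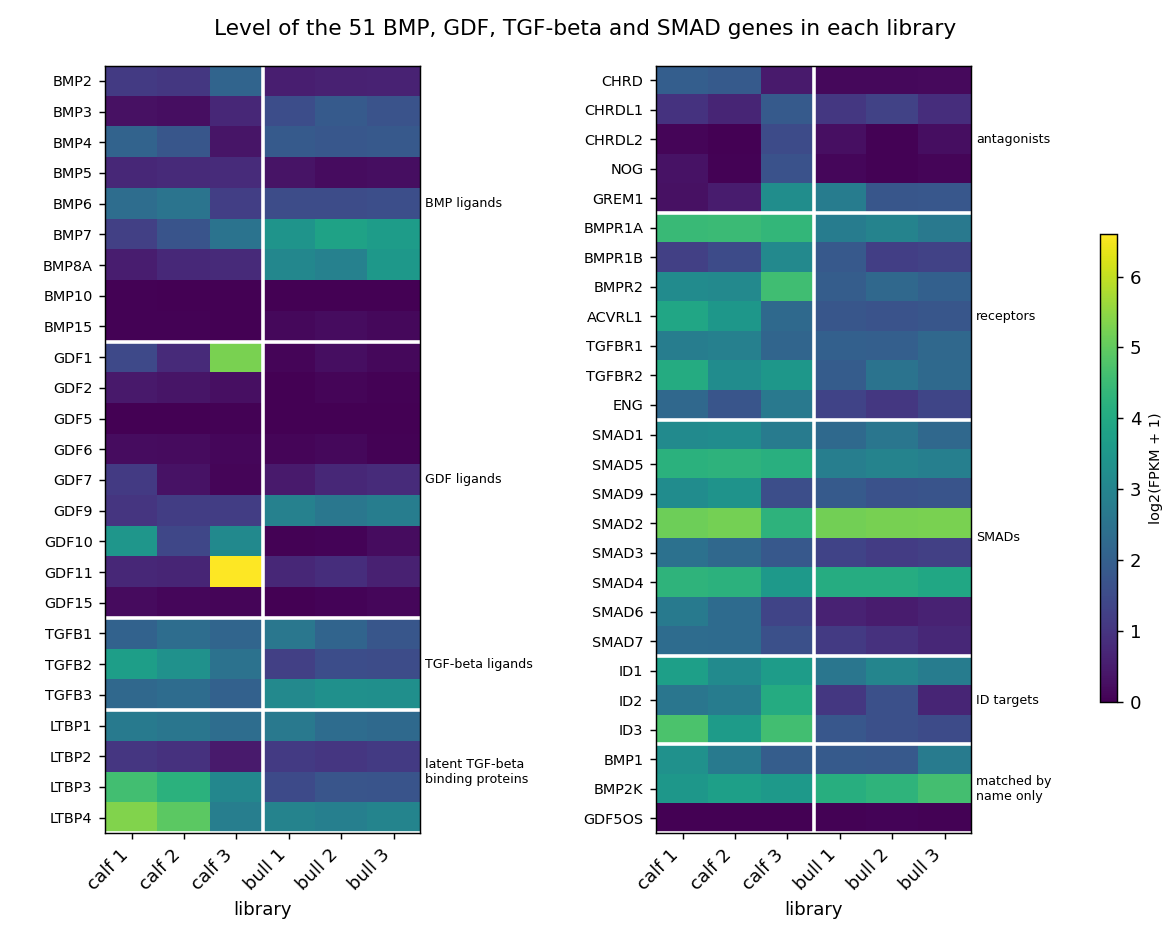
Level of each of the 51 genes, ordered by role, in the 6 libraries; the colour gives log2(FPKM + 1). BMPR1A, SMAD5, SMAD6, ID3 and LTBP3 are darker in the 3 bulls than in the calves, BMP7 and BMP8A are brighter, and the bright cells of GDF11 (94.5) and GDF1 (37.4) stand in calf 3 alone.

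Among the BMP ligands, BMP7 rose. Its FPKM was 1.39, 2.27 and 4.74 in calves 1 to 3 and 9.69, 13.1 and 11.5 in bulls 1 to 3. All bulls stood above all calves, and calf 3 was the nearest to them. The log2 fold change was 1.80 ± 0.35 (SE, adjusted p = 0.00588 by limma), and 2.14 ± 0.20 without calf 3 (adjusted p = 0.000156). The bulls' mean was 6.25 times that of calves 1 and 2. BMP7 (ENSBTAG00000015362, chromosome 13, 58889622 to 58975046) had 1 entry, an Ensembl transcript, and its locus overlaps SPO11, which stood at 0.613, 0.789 and 0.0784 in calves and 1.89 to 2.41 in bulls. Positions here are those in the tables, whose scaffold names belong to an ARS-UCD assembly, although the Methods name UMD3.1.1.

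BMP8A, which in mice is known for a role in germ cells, read 0.441, 0.707 and 0.712 in the calves and 7.27, 6.44 and 10.5 in the bulls. BMP3, an atypical BMP that dampens the signal of others, read 0.236, 0.186 and 0.660 in the calves and 1.97, 2.63 and 2.20 in the bulls. Neither overlapped between the groups. Both reached an FPKM of 1 in the bulls alone, so they passed the filter through the group where they were high. The log2 fold change of BMP8A was 2.47 ± 0.22 (adjusted p = 0.000226 by limma) and that of BMP3 was 1.27 ± 0.17 (adjusted p = 0.00131), and both were called without calf 3, at 2.51 and 1.43. The entries of both genes, described further on, place these rises outside the Ensembl transcript.

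No other BMP ligand was called. BMP2 stood at 1.18, 1.11 and 3.37 in calves and 0.476, 0.510 and 0.540 in bulls, with every bull below every calf and a log2 fold change of -0.85 ± 0.30 (adjusted p = 0.0514 by limma), short of the threshold of 1 on the log2 scale, and -0.51 without calf 3. BMP4, a ligand of germ cell formation in the embryo, lay at 2.49 to 2.67 in bulls and at 3.31 and 2.38 in calves 1 and 2, and dropped to 0.298 in calf 3. BMP6 stood at 4.11, 4.86 and 1.33 in calves and 1.91, 1.91 and 2.02 in bulls, with a log2 fold change of -0.89 without calf 3. This fall lay in TCONS_00210765, an entry assembled from the reads, which held 87.1% of the FPKM of calves 1 and 2. The mean of the summed Ensembl entries of BMP6 was 0.578 in calves 1 and 2 and 0.621 in bulls. The locus of BMP6 overlaps TXNDC5, at 81.5, 72.9 and 6.93 in calves and 14.9 to 17.7 in bulls. BMP5 failed the filter at 0.654, 0.731 and 0.754 in calves and 0.281, 0.159 and 0.180 in bulls, and the groups did not overlap. BMP10 was at most 0.0189 and BMP15, known from the oocyte, at most 0.171 in any library.

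Among the GDF ligands, GDF10 fell and GDF9 rose. GDF10, a relative of BMP3, read 10.2, 1.65 and 7.78 in the calves and 0.0291, 0.0384 and 0.158 in the bulls. Calf 2 was far below the other calves, yet above all bulls, and GDF10 passed the filter through the calves alone, like SMAD6 and BMP2. The log2 fold change was -2.57 ± 0.54 (adjusted p = 0.00798 by limma), and -2.34 ± 0.56 without calf 3. On the FPKM scale the mean of calves 1 and 2 was 78.4 times that of bulls, a ratio that the added 1 of the log scale compresses. GDF9, best known as a factor of the oocyte, read 1.01, 1.28 and 1.302 in the calves and 6.40, 5.18 and 5.94 in the bulls, with a log2 fold change of 1.64 ± 0.16 (adjusted p = 0.000353) and 1.67 without calf 3. The entries of GDF9, described further on, place nearly all of this rise outside the Ensembl transcript, which stayed at or below 0.168 in every library.

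The 7 other GDF ligands did not pass the filter. GDF11, a ligand of the activin branch, stood at 94.5 in calf 3 and at 0.526 to 0.816 in the other 5 libraries, so its calf mean of 31.9 rests on that library. GDF1 behaved likewise, with 37.4 in calf 3, 1.75 and 0.740 in calves 1 and 2, and 0.0568 to 0.194 in bulls. The locus of GDF1 overlaps CERS1, whose FPKM was 26.4 in calf 3 and 1.88 to 2.72 elsewhere. GDF2, the ligand of ACVRL1, was at 0.371, 0.307 and 0.201 in calves and 0.0111 to 0.0701 in bulls. GDF7 lay between 0.0691 and 1.17, while GDF5, GDF6 and GDF15 stayed at or below 0.156 and GDF5OS at or below 0.0365.

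The 3 TGF-beta ligands went different ways. TGFB2 read 11.9, 9.06 and 4.65 in the calves and 1.40, 1.96 and 1.92 in the bulls. All calves were above all bulls, with calf 3 the lowest of the calves. Its log2 fold change was -1.72 ± 0.34 (adjusted p = 0.00599 by limma) and -2.05 ± 0.18 without calf 3. TGFB3 read 3.66, 4.02 and 3.12 in the calves against 7.54, 8.86 and 8.78 in the bulls, which did not overlap. With 1.03 ± 0.17 (adjusted p = 0.00296) it passed the threshold, and it was just under it without calf 3, at 0.95 ± 0.14 (adjusted p = 0.00101), and without bull 2, at 0.99. TGFB1 overlapped, at 3.21, 4.14 and 3.44 in calves and 5.17, 3.40 and 2.40 in bulls, with a log2 fold change of -0.02 ± 0.26.

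Within a library, the share of each ligand in the summed FPKM of the 3 does not depend on how libraries were scaled. TGFB2 made up 63.5%, 52.6% and 41.5% of the sum in the calves and 9.92%, 13.8% and 14.6% in the bulls. TGFB3 took 19.5%, 23.3% and 27.8% in the calves and 53.4%, 62.3% and 67.0% in the bulls. TGFB2 was thus the leading ligand in each calf and TGFB3 in each bull. For both shares the exact permutation test gave p = 0.1 (two-sided), the smallest that 3 against 3 libraries allow, and 0.1 again without calf 3. The share of TGFB1 overlapped, at 17.1%, 24.0% and 30.7% in the calves (SD 6.84) and 36.7%, 23.9% and 18.3% in the bulls (SD 9.39), with an exact permutation p = 0.7.

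The latent TGF-beta binding proteins held some of the highest levels. LTBP4 read 39.9, 29.7 and 6.07 in the calves and 6.77, 6.20 and 6.83 in the bulls. Calf 3 lay below every bull, and the change was -1.45 ± 0.66 with it (adjusted p = 0.109 by limma) and -2.22 ± 0.15 without it (adjusted p = 4.57e-05). With calf 3 kept, LTBP4 was called under quantile normalization (-2.05) and library weights (-2.19). Library weights count a library less where it departs from its group, so they are no independent check on leaving calf 3 out. LTBP3 read 23.4, 17.6 and 7.36 in the calves and 1.78, 2.32 and 2.26 in the bulls, with no overlap. It fell in both fits, by 2.32 and by 2.77 on the log2 scale (adjusted p = 0.00393 and 3.25e-05). LTBP1 overlapped at 5.45, 5.02 and 4.15 against 5.33, 4.01 and 3.74, and LTBP2 at 1.06, 0.909 and 0.389 against 1.18, 1.05 and 1.17.

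Of the 5 antagonists, which bind BMPs outside the cell, 3 failed the filter. CHRD (chordin) read 2.92, 2.66 and 0.383 in the calves and 0.111, 0.109 and 0.130 in the bulls. It reached 1 only in calves 1 and 2, whose mean was 23.9 times that of bulls, and is given without a test. GREM1 (gremlin) read 0.231, 0.422 and 8.43 in the calves and 5.84, 2.42 and 2.44 in the bulls. Calf 3 exceeded every bull while calves 1 and 2 lay below every bull, and GREM1 was called without calf 3, at 1.71 ± 0.33 (adjusted p = 0.0038 by limma), but not with it, at 0.76 ± 0.83. Without calf 3 it was not called under quantile normalization. With all libraries it was called under library weights, at 1.62, and stood at -0.047 under quantile normalization of all 6 libraries. NOG stood at 2.15 and CHRDL2 at 1.85 in calf 3, and at most at 0.247 and 0.217 elsewhere. CHRDL1 overlapped, at 0.961, 0.603 and 2.68 against 1.12, 1.46 and 0.836.

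**Figure D2:**
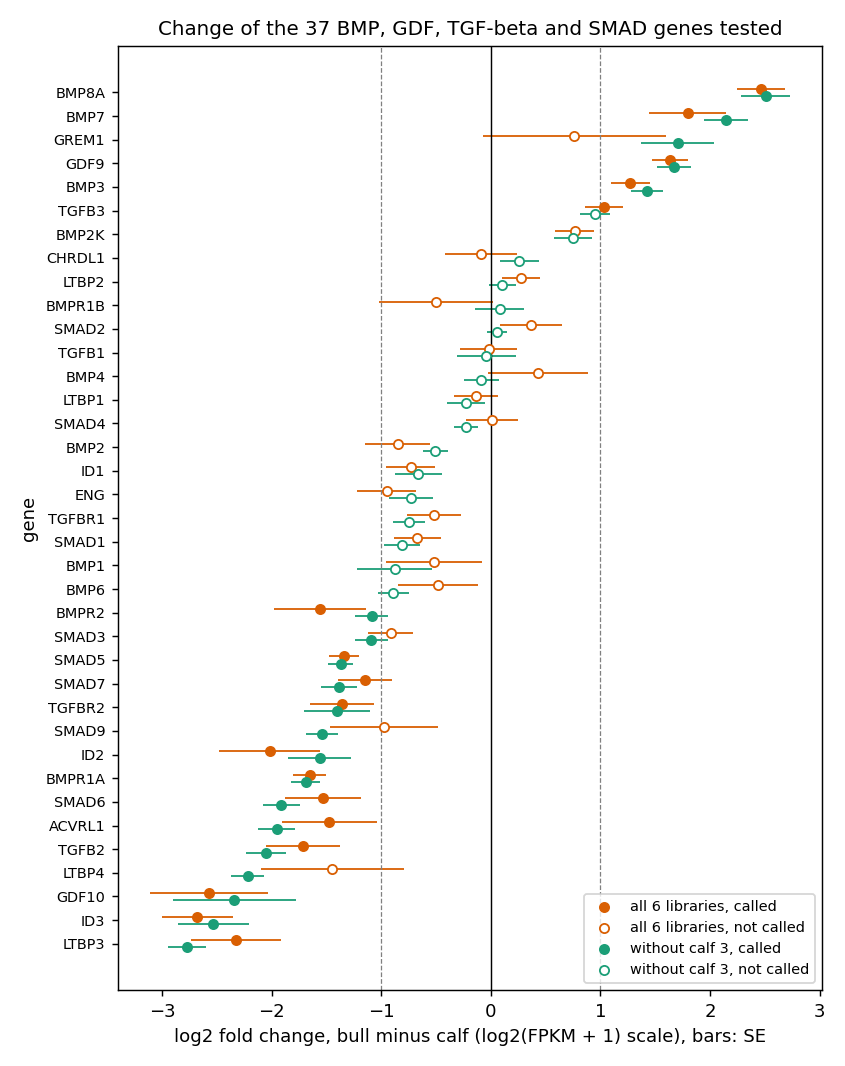
Log2 fold change (bull minus calf, on the log2(FPKM + 1) scale) of the 37 genes tested, with all 6 libraries and without calf 3; bars are SE, filled points were called and dashed lines mark the threshold of 1. The points of the ID genes and of all receptors but BMPR1B without calf 3 lie left of 0, and those of BMP8A, BMP7, GDF9, BMP3 and TGFB3 right of it.

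All 7 receptors had a log2 fold change below 0 with all libraries, where 39.1% of all genes tested did, but BMPR1B did not without calf 3. In both fits 4 of the receptors were called lower, where 9.61% of all genes were with all libraries and 13.6% without calf 3. BMPR1A, a type I receptor of BMPs, read 21.1, 21.6 and 19.8 in the calves and 5.87, 6.68 and 5.31 in the bulls, with calf 3 like the other calves. It fell by 1.65 on the log2 scale (SE 0.15, adjusted p = 0.000238 by limma), and by 1.69 without calf 3. BMPR2, its type II partner, read 8.01, 7.69 and 22.7 against 2.82, 3.69 and 3.04. Calf 3 was well above the other calves, and the change went from -1.56 ± 0.42 (adjusted p = 0.0211) to -1.09 ± 0.15 without it. With calf 3 kept and bull 1, bull 2 or bull 3 left out, BMPR2 was not called (adjusted p = 0.0762, 0.0577 and 0.0718).

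TGFBR2, the type II receptor of TGF-beta, read 15.7, 8.19 and 10.2 in the calves and 2.77, 4.71 and 3.75 in the bulls, a log2 fold change of -1.36 ± 0.29 (adjusted p = 0.00856 by limma) and -1.41 ± 0.30 without calf 3. ACVRL1, the type I receptor of vessel endothelium, read 13.9, 10.2 and 3.77 against 2.39, 2.24 and 2.39, or -1.47 ± 0.43 (adjusted p = 0.0284) and -1.95 ± 0.17 without calf 3. Neither receptor overlapped between the groups. The call of ACVRL1 was lost when calf 1, calf 2 or any 1 bull was left out, with adjusted p from 0.0687 to 0.0883. ENG, the co-receptor of ACVRL1, was at 3.73, 2.34 and 5.32 in calves and 1.51, 1.12 and 1.61 in bulls, and stayed under the threshold of size at -0.95 ± 0.27. The 6 endothelial markers summed to 24.3, 9.67 and 34.9 in the calves and 11.4 to 16.2 in the bulls. Calves 1 and 3 were above all bulls in this sum and calf 2 below them, and its part in the receptors' values was not tested.

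The type I receptors TGFBR1 and BMPR1B were not called. TGFBR1 stood at 5.89, 6.33 and 3.45 in calves and 3.05, 3.00 and 3.69 in bulls, and BMPR1B at 1.36, 1.84 and 7.69 against 2.56, 1.33 and 1.48. The mean of BMPR1B in calves 1 and 2 was 1.60, below the 1.79 of the bulls, so its fall rests on calf 3.

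Of the 8 SMAD genes, 3 were called lower with all libraries and 5 without calf 3, and none was called higher. Of all genes tested, 9.61% were called lower and 35.7% higher with all libraries, and 13.6% and 37.9% without calf 3. SMAD5 of the BMP route read 17.7, 18.2 and 16.9 in the calves and 6.08, 6.70 and 6.20 in the bulls. The spread within each group was small beside the gap, also with calf 3. SMAD5 fell by 1.34 on the log2 scale (SE 0.14, adjusted p = 0.000392 by limma) and by 1.37 without calf 3. SMAD9 read 8.25, 9.43 and 2.02 against 2.65, 2.19 and 2.27. Calf 3 was the lowest of all libraries, and SMAD9 was called without it, at -1.55 ± 0.15 (adjusted p = 0.000167), against -0.98 ± 0.49 with it. With calf 3 kept, SMAD9 was called under quantile normalization (-1.77) and library weights (-1.52). SMAD1 stood at 7.87, 8.19 and 5.71 against 3.78, 5.05 and 3.69, which did not overlap, and stayed under the threshold of size at -0.67 ± 0.21 and -0.81 without calf 3.

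Both inhibitory SMADs were lower in bulls. SMAD6 read 5.48, 3.92 and 1.57 in the calves and 0.549, 0.417 and 0.542 in the bulls, and SMAD7 read 4.02, 3.98 and 2.04 against 1.17, 0.935 and 0.662. In each case calf 3 was the lowest calf and still above every bull. SMAD6 reached an FPKM of 1 in the calves alone and so had to differ, and its call is no support for a direction. The log2 fold changes were -1.53 ± 0.35 for SMAD6 (adjusted p = 0.0107 by limma) and -1.15 ± 0.25 for SMAD7 (adjusted p = 0.00904), and -1.91 and -1.39 without calf 3.

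On the TGF-beta route, SMAD2 was the most abundant SMAD gene of each library, at 34.6, 36.3 and 18.2 in calves and 35.7, 37.2 and 37.9 in bulls. Its log2 fold change was 0.37 ± 0.28 and 0.06 ± 0.09 without calf 3, and lay below 0 under quantile normalization, so no direction was set. SMAD3 read 4.49, 3.68 and 2.51 against 1.51, 1.26 and 1.38, with no overlap. It was called without calf 3, at -1.09 ± 0.15 (adjusted p = 0.00077 by limma), and with it missed the threshold of size at -0.91 ± 0.21 (adjusted p = 0.0109). With all libraries it was called under a pseudocount of 0.1 (-1.27), quantile normalization (-1.77), median ratio scaling (-1.04) and library weights (-1.09). SMAD4, the shared partner, was nearly level at 18.7, 17.8 and 10.7 against 16.1, 16.0 and 14.2, with a log2 fold change of 0.01 ± 0.24 and -0.23 ± 0.11 without calf 3.

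Shares within a library, which no scaling changes, were compared as well. SMAD1, SMAD5 and SMAD9 together held 33.4%, 35.3% and 41.3% of the summed FPKM of the 8 SMAD genes in the calves and 18.5%, 19.99% and 18.2% in the bulls, a difference of -17.8 percentage points, and -15.4 without calf 3. SMAD2 and SMAD3 held 38.7%, 39.4% and 34.7% in the calves and 55.1%, 55.1% and 58.8% in the bulls. With Ensembl entries alone, the difference in this share was 9.70 percentage points, against 18.7 with all entries. The inhibitory pair held 9.39%, 7.79% and 6.06% against 2.54%, 1.94% and 1.80%. None of these shares overlapped between the groups, and each difference gave an exact permutation p = 0.1 (two-sided), the smallest possible with all libraries and again without calf 3. The summed FPKM itself ranged from 66.9 to 69.7 in the bulls and stood at 101.1 and 101.5 in calves 1 and 2, with 59.6 in calf 3.

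**Figure D3:**
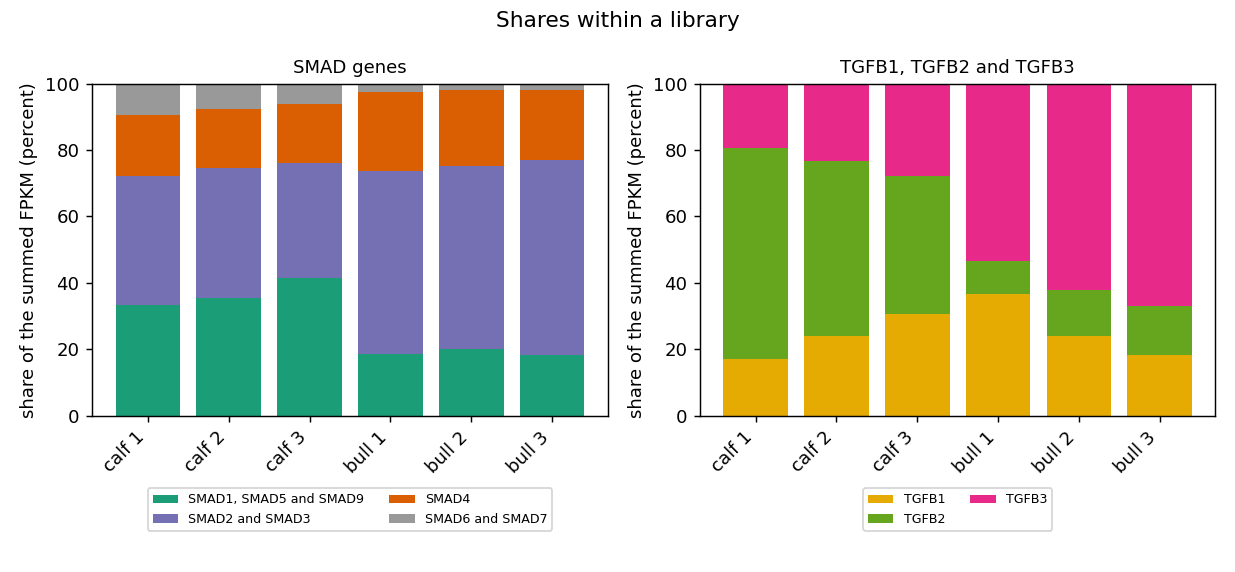
Share of each SMAD class in the summed FPKM of the 8 SMAD genes (left) and of each ligand in that of TGFB1, TGFB2 and TGFB3 (right), in percent, 1 bar per library. The green part of the left bars holds 33.4% to 41.3% in calves and 18.2% to 19.99% in bulls, and in the right bars TGFB2 leads in each calf and TGFB3 in each bull.

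ID2 and ID3, which block the binding of basic helix-loop-helix factors to DNA, were lower in bulls. ID3 read 25.3, 11.3 and 23.4 in the calves and 2.48, 2.04 and 1.85 in the bulls, and fell by 2.68 on the log2 scale (SE 0.33, adjusted p = 0.000806 by limma), or by 2.53 without calf 3. ID2 read 5.07, 5.82 and 15.6 against 1.11, 2.07 and 0.593, a change of -2.02 ± 0.46 (adjusted p = 0.0112) that became -1.56 ± 0.29 without calf 3. ID1 read 12.2, 7.95 and 11.6 against 4.99, 6.96 and 5.81. It did not overlap either, and stayed under the threshold of size at -0.73 ± 0.22.

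Of the genes matched by name only, BMP2K read 10.3, 12.2 and 10.9 in the calves and 16.7, 18.7 and 23.7 in the bulls, with a log2 fold change of 0.76 ± 0.18 (adjusted p = 0.0128 by limma), under the threshold of size. BMP1 overlapped at 9.20, 5.56 and 2.86 against 2.66, 2.59 and 5.71.

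Counted over roles, the genes whose groups did not overlap at all were 17 lower and 6 higher in bulls of the 37 tested, where 21.3% and 46.1% of all genes tested did so. Without calf 3 these were 22 and 7, against 30.9% and 53.5%. The counts include BMP2, GDF10 and SMAD6, which passed the filter through the calves alone, and BMP3 and BMP8A, which passed through the bulls alone. The groups could not overlap in these genes, so they are no support for a direction. Several of the genes lie near each other: SMAD2, SMAD7 and SMAD4 all lie on chromosome 24, between 47500431 and 50582540, while SMAD6 and SMAD3 are both on chromosome 10, and GDF10 and BMPR1A both on chromosome 28.

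The table of transcripts splits each gene into entries with an Ensembl identifier and entries assembled from the reads of the study, and the FPKM of each of the 51 genes equalled the sum of its entries. Of the 46 entries of these genes that passed the filter, 14 were called lower in bulls (9.37% of all 23212 entries tested were) and 9 higher (34.8%), and without calf 3 the calls were 20 and 10, against 13.1% and 36.1%. Among the 9 called higher with all libraries, TCONS_00264318, BMP8A-AS2, TGFB3-OT1, SMAD2-AS1, TCONS_00214206, BMP2K-AS1 and SMAD4-203 reached an FPKM of 1 in bulls alone. Likewise, an entry each of GDF10, SMAD6 and TGFB2, among the 14 called lower, reached it in calves alone. All of these entries had to differ between the groups, so their calls are no support for a direction. Entries were also counted by kind. Of the 94 Ensembl entries above 0 in any library, 29 were lower in all bulls than in all calves (30.9%, against 19.8% over all Ensembl genes) and 8 were higher (8.51%, against 20.5%), 1 of them listed at 0 in all calves (2.08% over all). Of the 44 assembled entries, 7 were lower (15.9%, against 11%) and 22 were higher (50.0%, against 36.9%). Among the latter, 13 were listed at 0 in all calves and above 0 in all bulls, or 29.5% of the 44, where 14.2% of all assembled entries of Ensembl genes were. Entries of 1 gene are not independent of each other: LTBP1 alone gave 6 of the 13.

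In 3 of the 5 genes called higher, nearly all of the bulls' FPKM lay in assembled entries. In BMP3, the Ensembl transcript BMP3-201 was at 0.156, 0.161 and 0.660 in calves and 0.141, 0.214 and 0.116 in bulls, and assembled entries held 93.1% of the bulls' FPKM. BMP8A-201 was at 0.158, 0.245 and 0.131 against 0.295, 0.239 and 0.177, and assembled entries held 97.1%. The largest of those in bulls, TCONS_00264318, was at 0.00387, 0.0367 and 0.0201 in calves and 3.66, 3.02 and 4.43 in bulls, and the locus of BMP8A overlaps MACF1. GDF9-201 stayed at or below 0.168 in every library, and 98.6% of the bulls' FPKM lay in TCONS_00337635, at 1.01, 1.28 and 1.27 against 6.24, 5.13 and 5.92. The locus of GDF9 overlaps UQCRQ, a respiratory chain gene, whose FPKM was 74.7 to 108 in all libraries.

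TGFB3 was divided between both kinds. TGFB3-201 read 3.42, 3.34 and 2.52 in the calves and 4.42, 4.66 and 5.07 in the bulls, with no overlap and a log2 fold change of 0.49 ± 0.19 (adjusted p = 0.0729 by limma over 23212 entries). The assembled TGFB3-OT1 read 0.247, 0.677 and 0.597 against 3.12, 4.19 and 3.71, and was called at 1.64 ± 0.19 (adjusted p = 0.000772), and at 1.69 without calf 3. The locus of TGFB3 overlaps IFT43, a gene of ciliary transport, which stood at 7.28, 8.02 and 4.45 in calves and 28.9, 32.1 and 25.1 in bulls. Of the 5 genes called higher, BMP7 was the only one still called when the Ensembl entries alone were summed, at 1.80 with all libraries and 2.14 without calf 3.

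Entries also differed within genes that were not called as a whole. TGFB1-AS1 was listed at 0 in the calves and at 3.08, 1.38 and 0.303 in the bulls, while the Ensembl entries of TGFB1 summed to 2.68, 3.47 and 2.498 in calves and 1.67, 1.58 and 1.43 in bulls, a log2 fold change of -0.60 ± 0.16 (adjusted p = 0.0235 by limma). The Ensembl entries of LTBP1 summed to 5.45, 4.91 and 4.15 against 1.94, 2.07 and 1.86, and were called without calf 3 at -1.06 ± 0.14, while its 7 assembled entries went from at most 0.111 in calves to 3.39, 1.94 and 1.88 in bulls. Within SMAD2, the most abundant Ensembl transcript was at 32.2, 33.7 and 15.6 in calves and 27.9, 29.2 and 30.2 in bulls. Its assembled entries SMAD2-AS1 and TCONS_00214206 were both called higher, at 1.83 ± 0.12 and 1.65 ± 0.14, from at most 0.294 in calves to 2.71 to 3.07 in bulls. BMP2K-AS1 likewise rose from at most 0.0819 to 1.97, 2.72 and 6.57, at 2.07 ± 0.35, while both Ensembl entries of BMP2K changed by 0.44 and 0.28 on the log2 scale and were not called. The locus of BMP2K overlaps PAQR3, at 2.98, 2.92 and 3.82 in calves and 19.5, 16.9 and 25.9 in bulls.

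SMAD4 showed the opposite exchange. Its assembled entry TCONS_00214366, which spans 50497321 to 50582540 on chromosome 24, read 17.3, 16.9 and 9.01 in the calves and 1.47, 1.93 and 1.56 in the bulls. The Ensembl transcript SMAD4-203, which spans 50524995 to 50577277 within it, read 0.857, 0.589 and 0.806 in the calves and 14.4, 14.1 and 12.6 in the bulls. Each entry separated the groups without overlap, calf 3 included. TCONS_00214366 changed by -2.49 ± 0.29 (adjusted p = 0.000695 by limma) and SMAD4-203 by 3.07 ± 0.18 (adjusted p = 5.23e-05), and without calf 3 the values were -2.77 and 3.096. The sum of both stayed level, so a table restricted to Ensembl entries gives SMAD4 as called higher in bulls, at 2.68 ± 0.20.

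The suffixes AS and OT are not defined in the sources used here, and the tables give no strand. The libraries were made with a kit that keeps the strand, but the sources do not say whether it was used in the counting, nor how fragments shared by entries of a gene were divided. In ID2 the division itself was uneven within a group: its Ensembl entry was listed at 0 in calf 1 and at 4.76 and 11.1 in calves 2 and 3, and with Ensembl entries alone ID2 was not called (-1.31 ± 0.95). Reads of an overlapping gene and of an entry in the same place cannot be told apart with these tables.

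**Figure D4:**
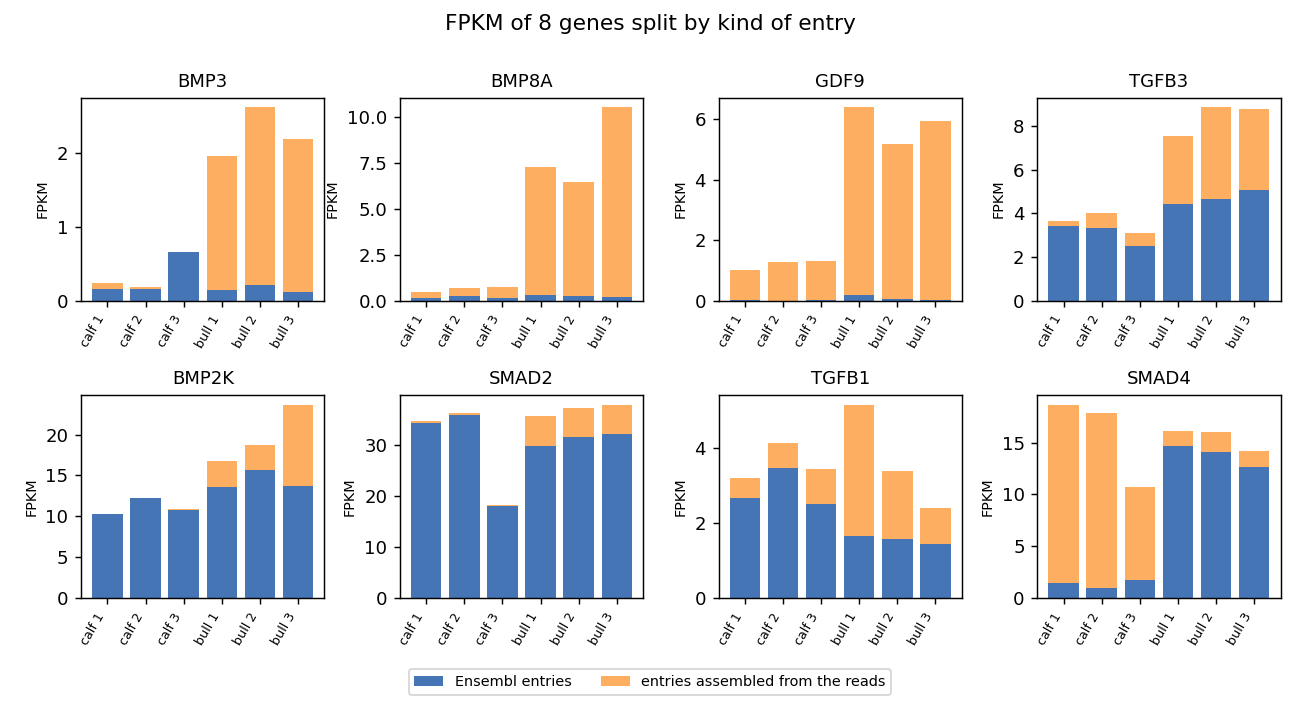
FPKM of 8 genes in each library, as the sum of Ensembl entries (blue) and of entries assembled from the reads (orange); each panel has its own axis from 0. In bulls orange makes up 93.1%, 97.1% and 98.6% of BMP3, BMP8A and GDF9, and in SMAD4 it makes up 10.7% in bulls and 93.7% in calves 1 and 2.

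Calf 3 departed from the other calves in particular members. Among the 51 genes, 3 were at least 4-fold above the mean of calves 1 and 2 on the log2(FPKM + 1) scale, namely GDF11, GDF1 and GREM1, and LTBP4 was at least 4-fold below. Over the 37 tested the counts were 1 above and 1 below, or 2.7% each, where 5.42% and 5.45% of all genes tested were that far apart. BMPR1A, SMAD5, ID3 and GDF9, picked after their values were seen, separated calves from bulls with calf 3 near the other calves: their FPKM in calf 3 was 0.928, 0.944, 1.28 and 1.14 times the mean of calves 1 and 2.

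Beyond the 51 genes, 45 of 46 other genes of the wider pathway were found in the table and 35 were tested. With all libraries 7 were called lower and 4 higher, and without calf 3 these were 16 and 4, beside the shares of all genes given above (9.61% and 35.7%, and 13.6% and 37.9%). With calf 3 kept, leaving out any 1 bull gave 3 or 4 lower, and leaving out calf 1 or bull 3 gave 2 higher. Among the genes called with all libraries, the largest falls were in PMEPA1, a TGF-beta target, SKIL, a repressor of SMADs, and BAMBI, a decoy receptor, at -2.01, -1.75 and -1.64. PMEPA1 read 4.24, 3.47 and 15.3 in calves and 0.788, 0.684 and 0.952 in bulls. The largest rises among them were in SMURF1 and TRIM33, ubiquitin ligases that act on SMADs, and BMPER, a BMP-binding protein, at 2.33, 2.01 and 1.04. SMURF1 went from 3.20, 3.02 and 8.60 to 25.8, 25.2 and 28.5, and TRIM33 from 9.91, 11.6 and 10.2 to 44.97, 41.2 and 50.2. PMEPA1 reached an FPKM of 1 in the calves alone and BMPER in the bulls alone. Both passed the filter through the group where they were high, so their calls are no support for a direction. Without calf 3 the largest falls were those of the Sertoli hormones AMH, at -6.66, and INHA, at -3.27, and of INHBA, an activin subunit, at -2.92. AMH itself read 736 and 483 in calves 1 and 2, 0.340 in calf 3 and 4.52 to 5.19 in the bulls, and with all libraries it was not called at -3.73 ± 2.41.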

How the data were processed

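RNA of 6 libraries was measured, 3 labelled calf and 3 labelled bull. The Methods state that the authors filtered ribosomal reads using Bowtie2, aligned by TopHat2 and ran StringTie for assembly. The tool that made the gene FPKM is not given in the sources used here. The deposited tables give FPKM per gene and per transcript and no counts, and the FPKM of a library summed to between 587066 and 1098715, so libraries were not scaled to a common total. The total of mapped fragments is not in these tables, and no counting interval was computed.

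Values were transformed to log2(FPKM + 1). Features that reached an FPKM of 1 in 3 or more of the 6 libraries were fitted with limma 3.58.1 in R 4.3.3 (empirical Bayes trend, two-sided, no replicate block), over the whole table, with Benjamini-Hochberg adjustment over all features tested. Fold changes on this scale understate changes of low genes. The labels do not say that replicates differ in more than the animal, but the markers of calf 3 set it apart. The p-values measure the spread between these libraries, with calf 3 included unless it was left out. Shares were compared by exact permutation over libraries. Figures were drawn with Python and matplotlib. The fit was tested on simulated data.

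The genes, roles and lists were chosen with earlier results of these data known. Values are given for genes called with all libraries or without calf 3, or whose mean FPKM reached 10 in a group, and others by range. Of other pathway genes, the 3 largest called changes each way are named. By symbol, 50 of the 51 genes matched the RefSeq annotation of ARS-UCD2.0, and all 50 overlapped the locus of the same symbol. Scaling, filter, pseudocount, library weights, each library left out and, chosen after seeing the data, Ensembl entries alone and a filter of 2 libraries were tried. Promoter motifs were not analysed here.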

Additional observations from a re-analysis of the deposited data

How the results depend on the processing

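Of the 17 genes called, 11 kept call and direction under every alternative in which they were tested, namely BMP7, BMP8A, BMPR1A, GDF10, ID3, LTBP3, SMAD5, SMAD6, SMAD7, TGFB2 and TGFBR2. Of these, BMP8A passed the filter through the bulls alone, and GDF10 and SMAD6 through the calves alone. Their kept calls are thus no support for a direction. ACVRL1 lost its call without calf 1, calf 2 or any 1 bull, BMPR2 under a common total or without any 1 bull, BMP3 and GDF9 under quantile normalization, ID2 under a common total or with Ensembl entries alone, and TGFB3 under 10 alternatives. With Ensembl entries alone BMP3, BMP8A and GDF9 failed the filter and were not tested. GREM1, LTBP4, SMAD3 and SMAD9, called without calf 3, were also called with it under library weights, and all of them but GREM1 under quantile normalization. Library weights can count calf 3 less, so those calls are no independent check on leaving it out. The cause of these calls was not tested. Quantile normalization gave 2 of the genes higher and 21 lower (3 and 22 without calf 3), 3827 and 4538 of all genes (4062 and 5275 without calf 3), 5 and 26 of the entries (27 lower without calf 3), and 2 and 12 of the other pathway genes (2 and 21 without calf 3). With Ensembl entries alone, where fewer genes are tested, 2 of the genes were higher, and 3 without calf 3. Of all genes, 1070 were lower under a common total, 2991 without calf 3 under median ratio scaling, and 2767 without calf 3 under a filter of 2 libraries. Of the other pathway genes, 2 were higher under median ratio scaling and with Ensembl entries alone. Lower among them were 15 under library weights and, without calf 3, 16 under median ratio scaling, 17 under the filter of 2 libraries and 16 with Ensembl entries alone. Leaving out each library in turn gave 2 to 4 of them higher and 3 to 16 lower, and 4 to 5 and 10 to 15 of the 51 genes. The difference in the TGFB1 share was -1.66 percentage points with Ensembl entries alone and -2.80 to 6.36 with libraries left out, and that of SMAD1, SMAD5 and SMAD9 kept its sign throughout. Below 0 were GREM1 under quantile normalization (-0.047), SMAD2 under quantile normalization (-0.38, and -0.73 without calf 3) and, without calf 3, median ratio scaling (-0.12) or Ensembl entries alone (-0.17). SMAD4 was at -0.60 under quantile normalization, -0.17 under median ratio scaling and -0.21 under library weights, and without calf 3 at -0.90 under quantile normalization, -0.40 under median ratio scaling and -0.23 under the filter of 2 libraries, and with libraries left out it ranged from -0.23 to 0.15. Calves and bulls are different animals. With the replicate number as a block, 5 of the genes were called higher and 12 lower, and 6437 and 1691 of all genes. The deviations of libraries with the same number correlated at 0.0277, 0.0246 and 0.0341, each library's highest value yet under 0.1, so the numbers were not taken to pair them. No counts are given, so what depth limits could not be set.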
